A study of Mus musculus with 6 samples.

Results

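The genes described here are the chemokines, the interleukins and their receptors in mouse liver, chosen by name alone: every gene whose annotated symbol begins with Ccl, Cxcl, Ccr, Cxcr or Il followed by a digit. The rule found 125 of the 16277 genes on the array, with 1089 of its 229581 probe sets. By role they were 19 CC chemokines, 13 CXC chemokines, 16 chemokine receptors, 37 interleukins, 33 interleukin receptors and 6 antagonists or decoys. The remaining member, Il4i1, matches by symbol but codes for a secreted amino acid oxidase. In 5 cases the annotated symbol was out of date, and those genes carry their current names here (Cxcr1, Cxcr2, Ackr3, Ifnl3 and Ifnlr1).

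Chemokines are small secreted proteins that draw leukocytes along a gradient, and they act through receptors that span the membrane and couple to G proteins. Interleukins are secreted signals between leukocytes and tissue cells, and most bind receptors built from a ligand-specific chain and a shared chain. In the liver both are made largely by Kupffer cells (the resident macrophages), endothelial cells, stellate cells and recruited leukocytes, while hepatocytes carry several interleukin receptors and answer with acute phase proteins.

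Liver RNA came from untreated mice of 1 month and was measured on 6 Affymetrix exon arrays, 3 from SRSF3HKO mice and 3 from WT mice, which the title and protocol call littermates of the same age. SRSF3HKO mice lack the splicing factor SRSF3 in hepatocytes, the only cells named as targeted, so other liver cells keep the gene. The labels name neither the Cre driver nor the deleted exons, and do not give the number of WT mice. A p-value here therefore measures the spread between these samples, which may be technical in part. The level of a gene is the median over its probe sets of log2(intensity + 16), a scale that understates changes of dim genes. In bulk RNA, fewer cells of a type and less RNA per cell cannot be told apart.

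Before the results, 2 features of the arrays bear on them. Median intensity was between 75.3 and 89.6, and Srsf3, as the median of its probe sets, was at 9.79, 9.24 and 9.35 in WT and 10.30, 9.10 and 9.78 in SRSF3HKO, which checks nothing about the labels without knowing the deleted part. The Y-linked gene Eif2s3y was above the detection floor in WT replicates 1 and 2 and SRSF3HKO replicate 3, and below it on the other arrays, so both groups mix arrays with and without Y-linked signal. SRSF3HKO replicate 1 stood apart in macrophage and neutrophil genes. The summed intensity of 18 macrophage markers was 5270, 5180 and 4750 in WT but 32100, 6020 and 6490 in SRSF3HKO replicates 1, 2 and 3. For 7 neutrophil markers the sums were 501, 567 and 643 in WT and 9620, 816 and 884 in SRSF3HKO. The sum of 9620 rests largely on Lcn2, at 12.84 on SRSF3HKO replicate 1, a gene that the acute phase list below also holds. On that array Fpr1 was next at 10.04, while S100a8 and S100a9 were at 7.33 and 6.97.

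The detection floor of 5.35 was set from receptor genes of smell and taste, 90% of which lay below it, and a gene was tested when its average level on the 6 arrays exceeded it. This left 60 of the 125 genes, and 6 of them passed although the mean of 1 group was below the floor. Of the 60, 5 rose and 5 fell in SRSF3HKO (limma, adjusted p under 0.05 over all genes). The share called was 16.7%, against 11.9% of all 11709 genes tested; by direction, 8.33% rose against 6.85% of all genes, and 8.33% fell against 5.03%. These shares lie near the background. For 21 of the 60 (35%) the SRSF3HKO values lay wholly above or wholly below the WT values, against 35.6% of all genes. The median log2 change was 0.12 over the tested members and 0.08 over all tested genes. Among their probe sets above the floor for single probe sets, 61 of 523 were called (11.7%), 26 higher and 35 lower, against 9.04% of all 157861 probe sets tested (4.73% higher and 4.32% lower). As a group, then, these genes were called at about the rate of other liver genes. The plot of all tested members by role gives each change with its error.

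**Figure D1:**
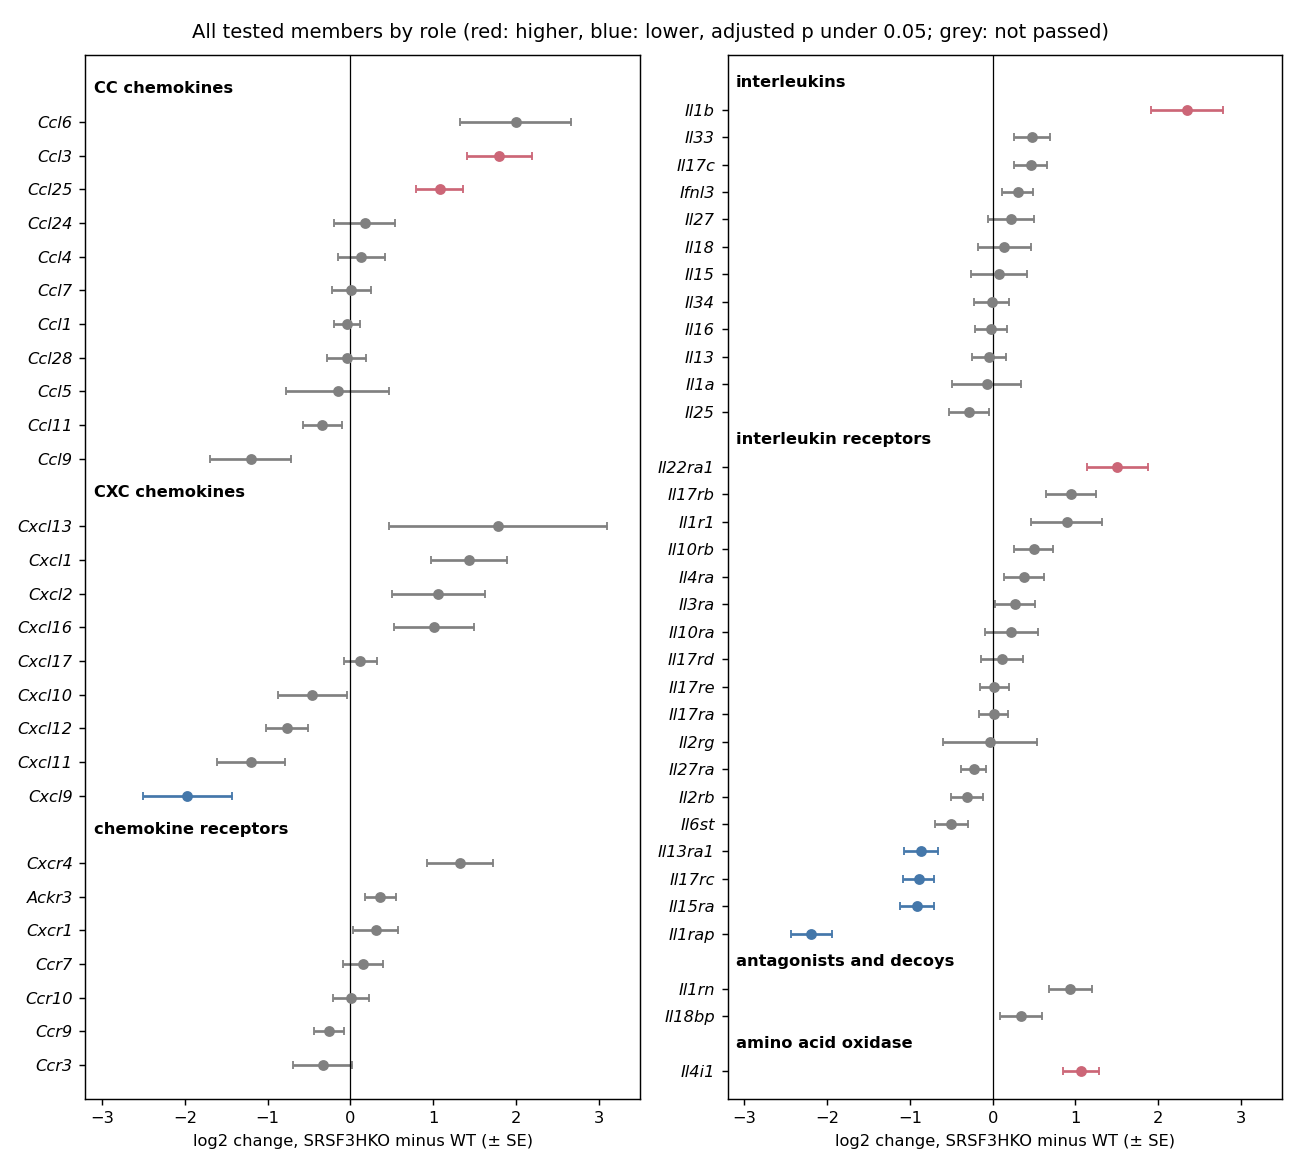
Log2 change (SRSF3HKO minus WT, horizontal axis) of the 60 tested members, grouped by role, with points for limma estimates and bars for the SE (3 arrays per group). Red points rose and blue points fell at an adjusted p under 0.05, 5 of each; 4 of the 5 that fell are interleukin receptors.

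The interleukin 1 system held the strongest fall and the largest called rise among the members. Il1rap codes for the accessory chain that the receptors for interleukin 1 and interleukin 33 need to signal. Its level was 10.47, 10.43 and 10.44 on the WT arrays and 7.87, 8.18 and 8.74 on the SRSF3HKO arrays. All SRSF3HKO values lay well below all WT values, and the WT arrays hardly differed from one another. The log2 change was -2.19 ± 0.24 (SE, limma adjusted p = 0.00234), a 4.56-fold difference. All 13 probe sets of Il1rap were above the floor, all 13 separated the groups, and 11 were called lower, with changes from -2.44 to -0.96. Il1rap was the only member whose call held through all 6 fits that left out 1 array (limma adjusted p from 0.00152 to 0.0259). Other calls held in some of these fits and ended in others.

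Il1b codes for interleukin 1 beta, a cytokine made mainly by activated macrophages and monocytes. Its level was 6.36, 5.18 and 6.20 in WT and 8.88, 8.51 and 7.40 in SRSF3HKO. Every SRSF3HKO array was above every WT array, and WT replicate 2 was below the floor. The log2 change was 2.35 ± 0.43 (limma adjusted p = 0.0149), a 5.10-fold difference, and 6 of its 7 probe sets above the floor were called higher. The call ended without WT replicate 1 or 2 (adjusted p = 0.0527 and 0.0715) and held without SRSF3HKO replicate 1 (log2 change 2.05, adjusted p = 0.0238). Of 18 tested macrophage markers 2 were called, both higher, against 6.85% of all genes called higher. Cd14, below the floor on all WT arrays, was higher by at least 3.54-fold (limma adjusted p = 0.0340) and highest on SRSF3HKO replicate 2. Marco rose by 2.78 ± 0.73 on the log2 scale (adjusted p = 0.0450) and was highest on SRSF3HKO replicate 1. Their part in the Il1b result was not tested.

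The other members of this system did not pass. Il1rn, whose product blocks the interleukin 1 receptor, was at 5.09, 5.19 and 5.99 in WT and 6.54, 6.37 and 6.18 in SRSF3HKO, without overlap but just short of the threshold (log2 change 0.94 ± 0.26, limma adjusted p = 0.0521). It passed without WT replicate 3 (1.22, adjusted p = 0.0266). Il1r1, the signalling receptor itself, was at 7.68, 7.83 and 7.93 in WT and at 8.05, 9.84 and 8.24 in SRSF3HKO. Those groups did not overlap either, but SRSF3HKO replicate 2 stood alone at the top and the change of 0.89 ± 0.43 did not pass (adjusted p = 0.212); without that array it was 0.33. Il1a and Il33, which code for related cytokines, had changes of -0.07 ± 0.42 and 0.48 ± 0.22 (adjusted p = 0.929 and 0.195). Il18 and Il18bp, the gene for its soluble inhibitor, had changes of 0.14 ± 0.32 and 0.35 ± 0.25 (adjusted p = 0.817 and 0.407).

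**Figure D2:**
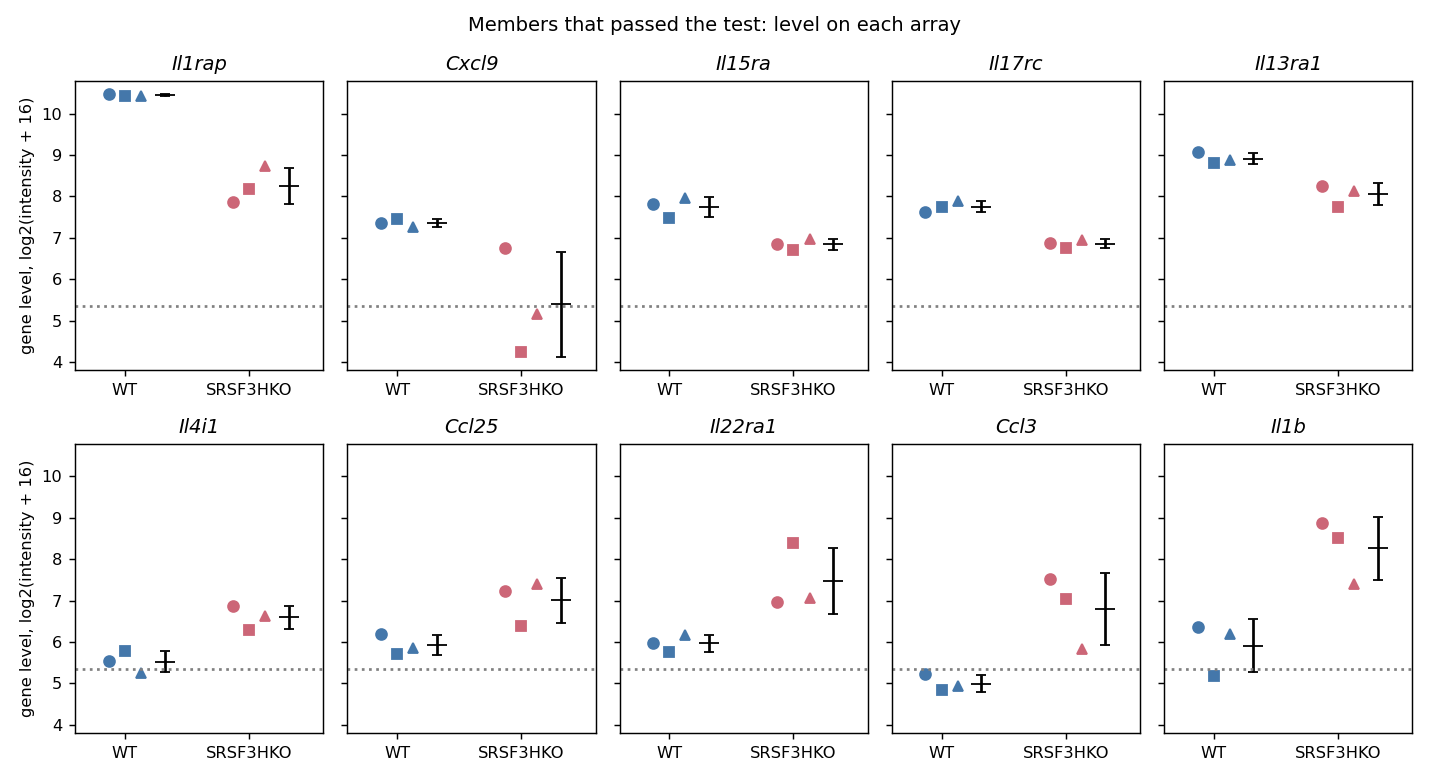
Gene level, log2(intensity + 16), of the 10 called members on each array (circle, square and triangle for replicates 1, 2 and 3; blue WT, red SRSF3HKO), with the mean and SD beside them and the detection floor as a dotted line. The groups do not overlap in any panel, and the spread within SRSF3HKO is wide for Cxcl9, Ccl3, Il1b and Il22ra1.

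Of the 18 interleukin receptors tested 5 were called (27.8%, against 11.9% of all genes), 1 higher (5.56%, against 6.85%) and 4 lower (22.2%, against 5.03%). Il17rc, Il15ra and Il13ra1 fell by similar amounts. Il17rc pairs with Il17ra to form the receptor for interleukin 17. It was at 7.62, 7.75 and 7.90 in WT and 6.87, 6.75 and 6.96 in SRSF3HKO (log2 change -0.89 ± 0.18, limma adjusted p = 0.0208). Its groups lay clear of each other with small spreads in both. The partner Il17ra was level across the arrays, at 7.57, 7.54 and 7.61 in WT and 7.59, 7.57 and 7.60 in SRSF3HKO (change 0.01 ± 0.17, adjusted p = 0.973).

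Il15ra codes for the chain that holds interleukin 15 and presents it to lymphocytes. It was at 7.83, 7.49 and 7.96 in WT and 6.85, 6.71 and 6.97 in SRSF3HKO (log2 change -0.91 ± 0.20, limma adjusted p = 0.0266). The groups did not overlap. Its 12 probe sets did not move as one: 3 were called lower, down to -1.42, and the highest change was 0.29. The 23 probe sets of Il17rc were also uneven, with 6 called lower and changes from -1.14 to 0.68. With the mean over probe sets in place of the median both gene-level calls ended (Il15ra adjusted p = 0.0746, Il17rc 0.0667), as they did with median polish (0.0609 and 0.0657).

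Il13ra1 codes for a chain that joins Il4ra to bind interleukins 4 and 13. It was at 9.07, 8.81 and 8.87 in WT and 8.26, 7.75 and 8.13 in SRSF3HKO (log2 change -0.87 ± 0.21, limma adjusted p = 0.0345), with no overlap. All 13 of its probe sets had negative changes and 8 were called lower. Il4ra itself had a change of 0.38 ± 0.24 (adjusted p = 0.334). The calls of Il17rc, Il15ra and Il13ra1 each ended when any 1 WT array was left out (adjusted p = 0.0792, 0.0800 and 0.0981 for Il17rc, 0.118, 0.0569 and 0.114 for Il15ra, 0.146, 0.0998 and 0.112 for Il13ra1, without WT replicates 1, 2 and 3), and that of Il13ra1 also without SRSF3HKO replicate 3 (0.0612).

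Il22ra1 rose. It codes for the receptor chain that lets epithelial cells, hepatocytes among them, respond to interleukin 22. It was at 5.97, 5.77 and 6.16 in WT and 6.97, 8.38 and 7.06 in SRSF3HKO, so that every SRSF3HKO array was higher and replicate 2 was the highest. The log2 change was 1.51 ± 0.37 (limma adjusted p = 0.0362), a 2.84-fold difference. Of 12 probe sets 10 were above the floor, and all 10 separated the groups with changes between 1.14 and 2.40, 8 of them called. The gene-level call ended without WT replicate 1, 2 or 3 (adjusted p = 0.124, 0.142 and 0.0942) and at a pseudocount of 64 (0.05005). Il10rb, the second chain of that receptor, was at 7.55, 7.46 and 7.62 in WT and 8.45, 8.0 and 7.66 in SRSF3HKO, without overlap, and did not pass (change 0.49 ± 0.24, adjusted p = 0.207).

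Other receptor chains were below the threshold. Il6st, the shared signalling chain of the interleukin 6 family, was at 10.02, 10.05 and 10.19 in WT and 9.64, 9.83 and 9.30 in SRSF3HKO (change -0.50 ± 0.20, limma adjusted p = 0.140). The groups were apart and all 18 of its probe sets had negative changes, 1 of them called. Without SRSF3HKO replicate 2 the gene passed (change -0.62, adjusted p = 0.0435). Il17rb, the receptor for interleukin 25, was at 6.35, 6.15 and 6.73 in WT and 7.39, 6.78 and 7.89 in SRSF3HKO (change 0.94 ± 0.30, adjusted p = 0.0793). It did not overlap between groups, 3 of its 14 probe sets above the floor were called higher, and it passed without SRSF3HKO replicate 2 (adjusted p = 0.0153), with the mean over probe sets (0.0441) and with median polish (0.0494). Il27ra was slightly lower on each SRSF3HKO array, at 6.02, 5.97 and 6.03 in WT and 5.85, 5.69 and 5.79 in SRSF3HKO (change -0.23 ± 0.15, adjusted p = 0.364). The remaining tested chains, Il2rb, Il2rg, Il3ra, Il10ra, Il17rd and Il17re, overlapped between groups, with changes between -0.31 and 0.27.

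**Figure D3:**
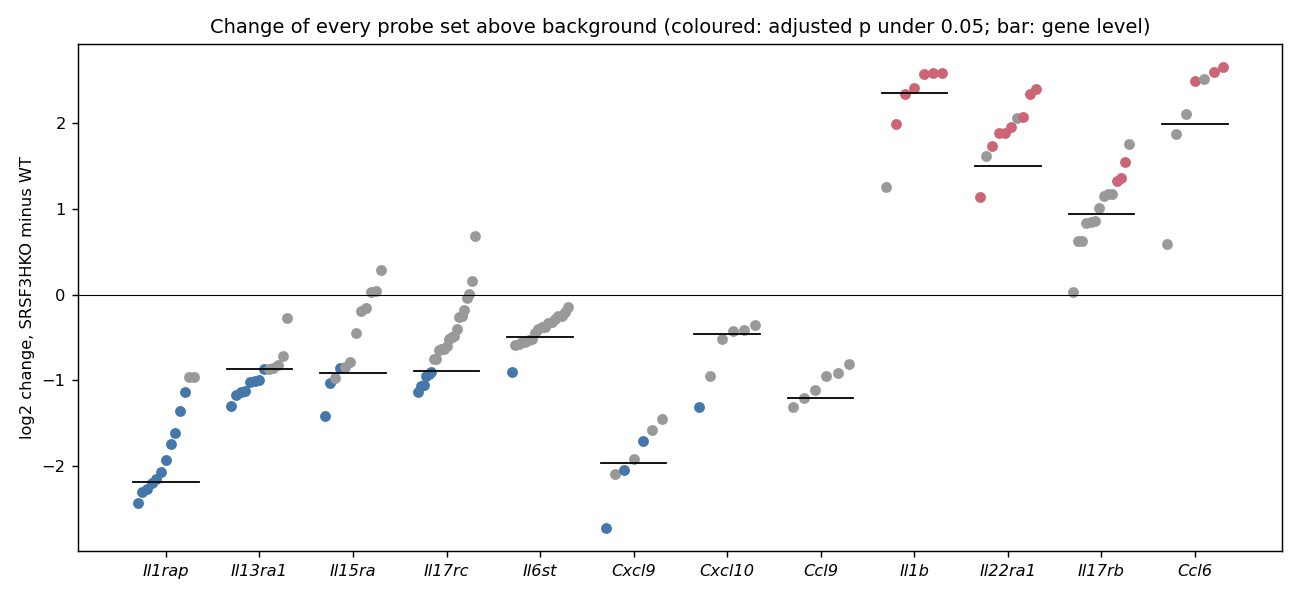
Log2 change (SRSF3HKO minus WT, vertical axis) of each probe set above background for 12 members, with a bar at the gene-level change. Blue and red points were called lower and higher. Il1rap, Il13ra1, Il6st, Cxcl9, Cxcl10 and Ccl9 have all points below 0, Il1b, Il22ra1, Il17rb and Ccl6 all above 0, and Il15ra and Il17rc points on both sides.

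Among the 11 tested CC chemokines 2 rose (18.2%, against 6.85% of all genes) and none fell. The share counts Ccl3, which passed the filter only through its SRSF3HKO values. Ccl3, which attracts monocytes through the receptor Ccr1, was at 5.22, 4.83 and 4.94 in WT, below the floor on all 3 arrays, and at 7.53, 7.03 and 5.82 in SRSF3HKO. It was above the floor on every SRSF3HKO array, lowest in replicate 3, and higher by at least 2.72-fold (limma adjusted p = 0.0254), with the SRSF3HKO mean set against the floor. Ccl25, which attracts lymphocytes that carry Ccr9, was at 6.20, 5.72 and 5.85 in WT and 7.23, 6.39 and 7.39 in SRSF3HKO (log2 change 1.08 ± 0.29, adjusted p = 0.0464). Its groups did not overlap, though the gap between WT replicate 1 and SRSF3HKO replicate 2 was small. The Ccl3 call ended without WT replicate 1, 2 or 3 (adjusted p = 0.0839, 0.111 and 0.0887), and the Ccl25 call ended without any single array except SRSF3HKO replicate 2 (adjusted p from 0.0876 to 0.166). With all arrays kept, the Ccl25 call also ended at a pseudocount of 64 (0.0510), with quantile normalization (0.0554) or median centring (0.0543), with the mean over probe sets (0.0533), median polish (0.0543) or only the probe sets above the floor (0.0511), and with no filter (0.0583).

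Ccl6 and Ccl9, chemokines of rodents made by myeloid cells, had changes of opposite sign. Ccl6 was at 7.53, 7.49 and 7.12 in WT and 11.11, 7.93 and 9.08 in SRSF3HKO. All SRSF3HKO arrays were higher, but by very different amounts, and the change of 1.99 ± 0.67 did not pass (limma adjusted p = 0.0927). Its 3 called probe sets had changes of 2.49 to 2.66, and without SRSF3HKO replicate 2 the gene passed at 2.72 (adjusted p = 0.0116), whereas without replicate 1 the change was 1.12 (0.0772). Ccl9 was at 10.57, 10.02 and 10.70 in WT and 9.74, 7.98 and 9.95 in SRSF3HKO, lower on each SRSF3HKO array, and did not pass either (change -1.21 ± 0.49, adjusted p = 0.143); without SRSF3HKO replicate 2 it was -0.58. Ccl5, which attracts T cells, was at 6.28, 6.33 and 6.51 in WT and 7.93, 5.61 and 5.13 in SRSF3HKO. Replicate 1 was above and replicates 2 and 3 below all WT arrays, so that the change was -0.15 ± 0.62 with all arrays (adjusted p = 0.90) and -1.01 without that array, when it passed (adjusted p = 0.0251). Ccl1, Ccl4, Ccl7, Ccl11, Ccl24 and Ccl28 had changes between -0.34 and 0.17.

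Among the 9 tested CXC chemokines 1 fell (11.1%, against 5.03% of all genes). Cxcl9, Cxcl10 and Cxcl11 are induced by interferon gamma and attract T cells through Cxcr3. Cxcl9 was at 7.36, 7.46 and 7.26 in WT and 6.76, 4.25 and 5.17 in SRSF3HKO, below the floor in replicates 2 and 3 (log2 change -1.97 ± 0.54, limma adjusted p = 0.0498). The WT arrays were nearly equal and the groups did not overlap. All 7 of its probe sets above the floor had negative changes, from -2.72 to -1.45, and 3 were called. Its call ended without WT replicate 1, 2 or 3 (adjusted p = 0.147, 0.166 and 0.127) and without SRSF3HKO replicate 2 or 3 (0.0532 and 0.111). Without SRSF3HKO replicate 1 it passed (0.00214), with both remaining SRSF3HKO arrays below the floor. With all arrays kept, the call also ended at a pseudocount of 1 (0.0834), with the mean over probe sets (0.0554), median polish (0.0536), only the probe sets above the floor (0.0577) or no filter (0.0604), and with eBayes without trend (0.0502) or robust (0.05003).

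Cxcl10 was at 7.07, 7.00 and 7.05 in WT and 7.57, 5.68 and 6.49 in SRSF3HKO, where replicate 1 was above WT and the others below (change -0.46 ± 0.42, limma adjusted p = 0.505). Without replicate 1 its change was -0.96 (adjusted p = 0.0576), and 1 of its 6 probe sets was called lower with all arrays. Cxcl11 was at 6.47, 4.92 and 6.62 in WT and 4.78, 4.68 and 4.95 in SRSF3HKO, below the floor in WT replicate 2 and in all SRSF3HKO arrays. With arrays of both groups below the floor no fold is given. Cxcl11 did not pass (limma adjusted p = 0.0921), but passed as lower without WT replicate 2 (adjusted p = 0.0122) and with the mean over probe sets (0.0399). Their receptor Cxcr3 was not tested, being below the floor on average.

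The upstream sequences of 4 chemokine and cytokine genes are shown because Cxcl9 and Cxcl10, induced by the same interferon, lay lower on SRSF3HKO replicates 2 and 3, while Il1b and Ccl3 rose. They were chosen after the values were seen. Each run holds the 250 bases before the annotated start, read 5′ to 3′ on the gene's strand, from RefSeq on GRCm38.p6, where 94 of the 125 members have an entry. Capitals mark matches on either strand to a loose NF-kB pattern (GGG, any 5 bases, CC), the core of the interferon-stimulated response element (GAAA, any 2 bases, GAAA) or the gamma-activated site (TTCNNNGAA); matches to the first can overlap one another and were counted on both strands.
Cxcl9, chr5:92328080-92328329, minus strand: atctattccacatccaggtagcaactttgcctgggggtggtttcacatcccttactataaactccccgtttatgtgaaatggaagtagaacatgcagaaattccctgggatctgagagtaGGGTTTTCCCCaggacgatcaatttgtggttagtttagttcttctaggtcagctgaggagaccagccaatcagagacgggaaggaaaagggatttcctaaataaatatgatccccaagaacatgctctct
Cxcl10, chr5:92348890-92349139, minus strand: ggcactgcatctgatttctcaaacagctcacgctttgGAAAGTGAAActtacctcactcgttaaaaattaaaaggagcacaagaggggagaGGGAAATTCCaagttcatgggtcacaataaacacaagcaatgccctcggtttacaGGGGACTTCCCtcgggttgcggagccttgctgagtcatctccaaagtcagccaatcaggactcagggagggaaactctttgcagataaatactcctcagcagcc
Il1b, chr2:129371140-129371389, minus strand: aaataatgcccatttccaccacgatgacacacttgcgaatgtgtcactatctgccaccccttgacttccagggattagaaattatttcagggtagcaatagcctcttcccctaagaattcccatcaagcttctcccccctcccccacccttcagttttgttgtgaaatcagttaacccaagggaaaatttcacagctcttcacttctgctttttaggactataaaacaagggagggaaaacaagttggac
Ccl3, chr11:83649379-83649628, minus strand: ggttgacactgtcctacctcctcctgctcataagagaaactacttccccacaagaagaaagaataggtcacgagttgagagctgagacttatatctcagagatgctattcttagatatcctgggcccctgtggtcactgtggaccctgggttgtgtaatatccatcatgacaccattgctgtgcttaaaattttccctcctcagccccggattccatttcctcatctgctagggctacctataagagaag

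The Cxcl10 run held 1 match to the interferon-stimulated response element core, 213 to 204 bases before the start, a pattern found in 2.98% of the 32851 promoters in the table. The NF-kB pattern matched 3 times in the Cxcl9 run and 4 times in the Cxcl10 run, and in 45.8% of all promoters, so that it sets neither apart. TTCNNNGAA, found in 7.02% of promoters, had no match in the 4 runs, and the Il1b and Ccl3 runs held none of the 3 patterns in this window.

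Cxcl1 and Cxcl2 attract neutrophils through Cxcr2. Cxcl1 was at 6.46, 5.16 and 7.13 in WT and 7.62, 8.10 and 7.32 in SRSF3HKO, higher on all SRSF3HKO arrays by a small margin over WT replicate 3 (log2 change 1.43 ± 0.46, limma adjusted p = 0.0806). Cxcl2 was at 5.32, 4.91 and 5.21 in WT, below the floor, and at 5.27, 7.75 and 5.61 in SRSF3HKO, where replicate 2 was far above the others. On SRSF3HKO replicate 1 Cxcl2 was below the floor too, so no fold is given, and it did not pass (limma adjusted p = 0.254). Cxcl12, the ligand of Cxcr4, was at 9.32, 9.31 and 9.47 in WT and 9.04, 8.13 and 8.63 in SRSF3HKO, lower on each array without passing (change -0.77 ± 0.25, adjusted p = 0.0831; 0.0394 without SRSF3HKO replicate 1). Cxcr4 itself was at 5.26, 6.02 and 5.26 in WT and 7.62, 6.86 and 6.04 in SRSF3HKO (change 1.32 ± 0.39, adjusted p = 0.0650). Its groups were separated by a narrow gap, and it passed without SRSF3HKO replicate 3 (1.72, adjusted p = 0.0247). None of the 7 chemokine receptors tested passed with limma, beside 11.9% of all genes, and 1, Cxcr4, had an unadjusted p under 0.05; Ackr3, Ccr3, Ccr7, Ccr9, Ccr10 and Cxcr1 overlapped between groups, with changes between -0.34 and 0.36. Cxcl17 had a change of 0.12 ± 0.20 (adjusted p = 0.741).

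Of 12 tested interleukins Il1b was the only one called (8.33%, against 11.9% of all genes). Il13, Il15, Il16, Il17c, Il25, Il27, Il34 and Ifnl3 had changes between -0.28 and 0.46 and overlapped between groups, as did Il1a, Il18 and Il33. Il13 held 1 called probe set of its 2 above the floor, with a change of -1.08 (limma adjusted p = 0.0343), beside 0.10 for the other. Il4i1, the amino acid oxidase, was at 5.54, 5.78 and 5.26 in WT and 6.86, 6.30 and 6.64 in SRSF3HKO. It rose without overlap by 1.07 ± 0.22 on the log2 scale (adjusted p = 0.0202), and the call ended without WT replicate 1, 2 or 3 (0.0871, 0.0564 and 0.0865).

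The level of many members depended on SRSF3HKO replicate 1, the array with high macrophage and neutrophil markers. Among the 3 SRSF3HKO arrays it held the highest value for 37 of the 60 tested members (61.7%), against 34.3% of all tested genes, a description with no test. Cxcl13, which attracts B cells through Cxcr5, was at 10.68 on that array and at 4.90 and 5.26 on replicates 2 and 3, beside 4.73, 5.45 and 5.31 in WT. It was above the floor on 1 WT array and 1 SRSF3HKO array and did not pass (limma adjusted p = 0.412), and without that array the gene was below the floor. Cxcl16, a chemokine anchored in the membrane of macrophages, was at 6.95, 6.88 and 7.36 in WT and 9.32, 7.54 and 7.35 in SRSF3HKO (change 1.01 ± 0.48, adjusted p = 0.206); without replicate 1 it was 0.38. Il2rg, the chain shared by receptors of lymphocyte growth factors, was at 5.74, 5.83 and 5.72 in WT and 7.30, 4.77 and 5.13 in SRSF3HKO. It was below the floor on replicates 2 and 3, had a change of -0.04 with all arrays, and passed as lower without replicate 1 (limma adjusted p = 0.0305).

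Markers of macrophages, the cells that make several of these chemokines, had their highest value on SRSF3HKO replicate 1 for 16 of 18 tested genes. Neutrophil markers did so for 7 of 7 tested. Over all tested genes the share was 22.4%. The filter itself favours genes that are high on such an array. Retnlg, below the floor on all WT arrays, was tested only through its SRSF3HKO values. Among untested neutrophil markers, Mpo, Camp, Ltf and Ngp were highest on other arrays. In the macrophage list 2 of 18 genes rose and none fell, against 6.85% and 5.03% of all genes. The median log2 change was 0.88, or 0.27 without that array, again with 2 higher. The list was mixed on SRSF3HKO replicates 2 and 3. There Adgre1, Timd4, Clec4f and Csf1r were below all WT arrays, whereas Cd14, Marco, Cd68, Cd163, Vsig4, Lyz2, C1qa, C1qb and C1qc were above them. Of 12 annotated neutrophil markers 5 were below the floor, and none of the 7 tested was called (median 1.10, or 0.40 without SRSF3HKO replicate 1). Of 18 annotated lymphocyte markers 11 were below the floor, among them Cd3d, Cd4 and Ms4a1, and none of the 7 tested was called (median -0.12). Their summed intensity was 224, 303 and 277 in WT and 386, 215 and 169 in SRSF3HKO. What part these cells have in the levels of the chemokines was not tested.

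**Figure D4:**
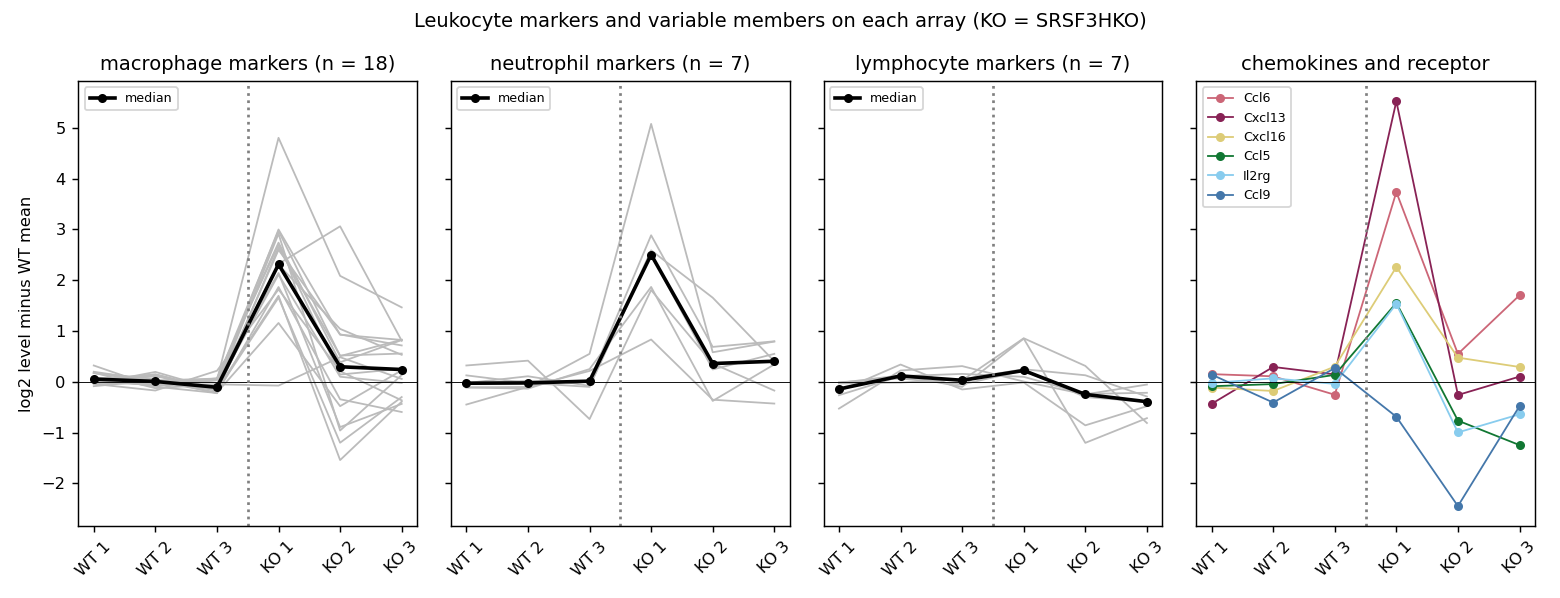
Level on each array minus the WT mean (log2, vertical axis) for the tested macrophage, neutrophil and lymphocyte markers (grey lines, one per gene, with the median in black) and for 6 members. SRSF3HKO replicate 1 is the high point of 16 of 18 macrophage and 7 of 7 neutrophil markers tested, beside 22.4% of all tested genes. It is also the high point of Ccl6, Cxcl13, Cxcl16, Ccl5 and Il2rg, whereas Ccl9 is lowest on SRSF3HKO replicate 2.

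The 65 members that were not tested were dim. On 42 of them no array was above the floor, among them Il6, at 4.17, 4.47 and 4.12 in WT and 4.43, 4.53 and 4.57 in SRSF3HKO, and Il10. Above the floor on WT arrays only were 7, and 4 on some arrays of both groups. The other 12 were above it on SRSF3HKO arrays only, 6 of them on replicate 1 alone. The monocyte chemokine Ccl2 and its receptor Ccr2 were among these, at 6.08 and 6.19 on replicate 1 and at most 5.23 on any other array, and so was Ccr1, at 5.82. No probe set of an untested member was called, although 47 of the 65 had at least 1 probe set above the floor for probe sets.

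Genes that act beside the members were followed in lists. Their counts stand beside 6.85% of all tested genes called higher and 5.03% called lower. Of 13 tested chemokine system genes with other names, Ackr3 included, 2 rose and none fell (median -0.05). They were Mif, which codes for a factor that inhibits macrophage migration (log2 change 0.88 ± 0.19, limma adjusted p = 0.0234), and the platelet chemokine Pf4 (1.16 ± 0.26, adjusted p = 0.0277). Pf4 was also the 1 of 6 tested platelet markers that rose (list median 0.14). Of 16 tested cytokine receptors with other names 1 rose and 2 fell (median -0.045). The leptin receptor gene Lepr was at 5.03, 4.98 and 5.77 in WT and 7.25, 9.89 and 7.98 in SRSF3HKO (limma adjusted p = 0.0169), above the floor on 1 of the WT arrays and on all SRSF3HKO arrays. Lifr, which pairs with Il6st to bind leukemia inhibitory factor, was at 11.17, 11.28 and 11.03 in WT and 8.94, 9.11 and 9.27 in SRSF3HKO (-2.05 ± 0.18, adjusted p = 0.00102), and Ghr fell by 3.37 on the log2 scale. Among signalling genes below the receptors, 2 of 21 JAK-STAT and related genes rose, the adaptor Myd88 (0.91 ± 0.24) and the phosphatase Ptpn11 (0.73 ± 0.20), and 1 of 20 NF-kB genes, Nfkbib (0.89 ± 0.22); none fell, and the medians were -0.15 and 0.14.

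Hepatocytes raise many acute phase genes in answer to interleukins 6 and 1, but whether each listed gene responds so was not tested. Of 25 tested 5 fell and 1 rose (median -0.28), beside 5.03% and 6.85% of all genes. Without SRSF3HKO replicate 1 the counts were again 5 and 1. Crp went from 12.53, 12.39 and 12.74 in WT to 9.36, 8.70 and 10.38 in SRSF3HKO (log2 change -3.07 ± 0.38, limma adjusted p = 0.00366). Saa2, a serum amyloid, was below the floor on all SRSF3HKO arrays and at least 2.33-fold lower (adjusted p = 0.0122). Itih4 fell by 1.44 ± 0.15 and Saa4 by 1.94 ± 0.42 on the log2 scale, and Fga, a fibrinogen chain, fell by 0.88 ± 0.23. Hamp, which codes for the iron hormone hepcidin, rose by 1.6 ± 0.38. Among those not called were Saa1, Saa3, Hp, Orm1, Orm2 and Lcn2, with changes of -1.10, -0.02, 0.05, -0.51, -0.29 and 2.15. Among markers of the other liver cells, again beside 5.03% of all genes lower and 6.85% higher, 2 of 16 endothelial genes fell (Flt4 and Kdr, median -0.48). Of 14 stellate cell and fibroblast genes 1 rose and 1 fell (Pdgfra and Col3a1, median 0.15). Prom1 was the 1 of 10 cholangiocyte genes that rose (median 0.51), and Cyp2f2 the 1 of 11 hepatocyte genes that fell (median -0.26).

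Both groups hold arrays with Y-linked signal (WT replicates 1 and 2, SRSF3HKO replicate 3) and without it, so differences were also taken within each kind, where 1 of the groups has a single array and no test was made. Since the groups of the called members do not overlap, the direction within each kind is fixed, and only the sizes are given. The log2 differences with and without that signal were -1.72 and -2.42 for Il1rap and 1.63 and 2.50 for Il1b. They were 1.20 and 1.51 for Il22ra1 and 1.43 and 0.96 for Ccl25; none is given for Ccl3, Cxcl9 and Il4i1, for which one side of a difference was below the floor. For Il17rc, Il15ra and Il13ra1 they were -0.73 and -1.09, -0.68 and -1.18, and -0.81 and -0.86. When Y-linked signal entered the fit as a covariate 3 calls were left, those of Il1rap, Il1b and Il4i1 (limma adjusted p = 0.00721, 0.0288 and 0.0368), at 5.28% called among all genes.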

How the data were processed

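The deposited values are intensities on a linear scale, 1 per core exon probe set; per the labels and the submitters' processing notes, the authors made them with PLIER and Affymetrix Expression Console. Versions and the background step are not given in the sources used here. The labels gave each array's genotype; replicate numbers only name arrays, by accession order. Probe sets were named from the platform annotation supplied with the series: 208397 had 1 gene, 3965 several and 17219 none, and the last 2 kinds were left out of gene levels. Symbols were updated through a RefSeq table. Values were transformed as log2(intensity + 16), a gene was the median of its probe sets, and the detection floor (5.35 for genes, 5.62 for probe sets) was the 90th percentile of 1045 receptor genes. SRSF3HKO was compared with WT by limma 3.58.1 (moderated test with a mean-variance trend, R 4.3.3), with Benjamini-Hochberg adjustment over all genes or all probe sets tested and a threshold of 0.05. The number of arrays limits the precision. Named were all tested members, with array values for those called or without overlap, and up to 4 called genes of each of 14 lists with the lowest adjusted p. Cxcl2, Cxcl10, Cxcl11, Cxcl13, Cxcl16, Ccl5, Il2rg, Hamp, Fga and the genes with printed promoters were added after their values were seen. So were the untested members, the markers below the floor and the uncalled list genes named in the text. The sex-chromosome list had 2 tested genes, none called (median log2 change -0.89). Members and lists were chosen with earlier results of these data known. The fit was also run on simulated data, whose outcome is not given here and on which no result above rests. Tables were read with the R package data.table (version 1.17.8) and figures drawn with Python 3.11.15 and matplotlib 3.10.9.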

Additional observations from a re-analysis of the deposited data

How the results depend on the processing

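The settings tried were a pseudocount of 1 or 64, median centring, quantile normalization, other gene summaries (mean, median polish, probe sets above the floor), no filter or one at the median, eBayes without trend or robust, the Y-linked covariate, an adjusted p under 0.01, current symbols, and leaving out each array. Il1rap kept its call in all of them. The 10 calls became 3 with the Y-linked covariate (2 higher, 1 lower) and 1 at an adjusted p under 0.01 (0 higher, 1 lower), and were 7 to 10 with the others that kept all arrays. There were 3 lower calls with the mean over probe sets and 2 with median polish, and 3 higher calls with the filter at the median. Of member probe sets 38 were called with no filter (16 higher, 22 lower), 16 were higher with the filter at the median, 28 were called with the Y-linked covariate (15 higher, 13 lower) and 14 at an adjusted p under 0.01 (5 higher, 9 lower). Over all genes these last 2 settings called 618 (315 higher, 303 lower) and 296 (126 higher, 170 lower), and over all probe sets 6247 (2778 higher, 3469 lower) and 3340 (1282 higher, 2058 lower). Without 1 array there were 1 to 12 member calls (0 to 7 higher, 1 to 8 lower), 15 to 71 member probe sets (6 to 39 higher, 8 to 32 lower), 244 to 2155 of all genes (106 to 1383 higher, 130 to 772 lower) and 3006 to 21885 of all probe sets (1342 to 11885 higher, 1659 to 10000 lower). The median change of tested members was -0.02 to 0.22 without 1 array. Ccl5 turned sign at a pseudocount of 64 (0.019) and with median polish (0.26), and ran from -1.01 to 0.39 without 1 array. Il2rg turned sign at a pseudocount of 64 (0.085) and ran from -0.82 to 0.45, the lowest value resting on SRSF3HKO arrays below the floor. Of the 32 other tested members 22 turned sign in at least 1 setting and none was called in any. The cause of these changes was not tested. No paired analysis was possible because the labels give no replicate numbers that the groups share. Dim members near the floor limit what these arrays can show.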
